A study of Mus musculus with 8 samples.

Results

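The genes described here are 10 direct antiviral effectors, Mx1, Mx2, Rsad2, Cmpk2, Bst2, Ifitm1, Ifitm2, Ifitm3, Eif2ak2 and Zbp1, taken by gene symbol from the 53465 Ensembl gene IDs that each library counts. All 10 were found once and all 10 passed the filter on low counts. They were measured by RNA sequencing in regulatory T cells (Tregs) made in culture from CD4+ T cells of wild-type C57BL/6 mice, with 4 libraries without drug (control) and 4 with BMS309403, labelled FABPi. Both groups share the same culture on anti-CD3 at 5 µg/mL with anti-CD28 at 0.5 µg/mL, IL-2 at 100 U/mL, TGF-β at 5 ng/mL and antibodies that block IL-4, IL-12 and IFN-γ at 10 µg/mL. The cultures were divided after 72 h, and the treated part received 50 µM BMS309403, an inhibitor of fatty acid-binding proteins directed here at FABP5. No vehicle is named for the control and no time of exposure is given. The labels give spleen as the tissue and, in the growth protocol, spleen and peripheral lymph nodes as the source of the cells, and do not tell whether replicates came from separate mice.

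Cells answer type I and type III interferons, and in part interferon gamma, by inducing a set of genes whose products act on viruses themselves. Interferon receptors signal through the kinases JAK1 and TYK2 to the transcription factor ISGF3, which binds interferon-stimulated response elements (ISREs) near gene starts. The effectors act at different steps of infection: IFITM proteins at entry, MX proteins on incoming viral ribonucleoproteins, PKR (Eif2ak2) and ZBP1 as sensors of viral nucleic acid, viperin (Rsad2) and CMPK2 through nucleotides, and tetherin (Bst2) at the release of particles.

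Of the 10 effectors, 7 were higher and 2 were lower with BMS309403 at an edgeR adjusted p under 0.05, and Ifitm3 was not past that threshold. Of all 14443 tested genes, 18.7% were called higher and 18.1% lower. The 7 higher effectors were all at least 2-fold higher, as were 2.46% of all tested genes. Every treated library lay above every control library for those 7, against 17.7% of tested genes, and below every control library for Ifitm1 and Ifitm2, against 16.1% of tested genes. The median log2 fold change was 1.35 over the 10 effectors and 0.01 over all tested genes. Their summed level went from 318 ± 37.2 to 681 ± 30.4 CPM (counts scaled to library size; SD, n = 4). In bulk RNA, a change in the share of cells that express a gene and a change in its RNA per cell cannot be told apart.

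**Figure D1:**
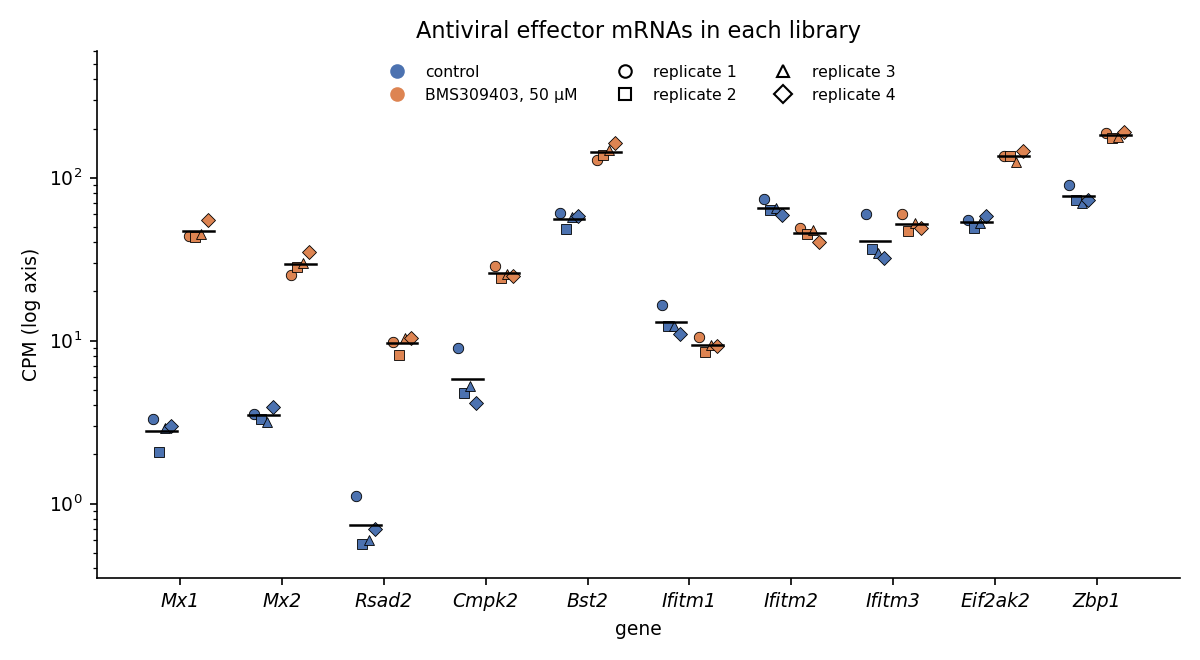
CPM of the 10 effectors in each library on a log axis, with control in blue, BMS309403 in orange, replicate numbers as symbols and group means as bars. Mx1, Mx2, Rsad2 and Cmpk2 start under 10 CPM in every control library and show the widest gaps, while the groups overlap for Ifitm3 alone.

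Total counts lay between 32923433 and 44644485 per library. Markers of T cells and of Tregs were abundant, with Foxp3, the Treg lineage factor, at 950 ± 55.6 CPM without the drug and 1247 ± 15.3 CPM with it (SD, n = 4). The counts of called markers below stand against 18.7% of all tested genes called higher and 18.1% lower. Of 8 Treg markers 5 were called higher and 1, Nt5e, lower (-0.74 on the log2 scale, edgeR adjusted p = 9.98e-08). The summed CPM of the Treg markers ran from 4704 to 5353 in control and 5935 to 6294 in treated libraries. Of 8 T cell markers 1 was higher and 6 were lower, among them Cd3e (-0.46) and Cd3d (-0.36), which are subunits of the T cell receptor complex. Their summed CPM ran from 3397 to 3526 in control and from 3062 to 3331 in treated libraries, without overlap. Nt5e, Cd3e and Cd3d were named after their values were seen. Of the marker lists of other cells, summed CPM ran from 344 to 434 in control and 276 to 296 in treated libraries for 6 B cell genes, almost all of it Ighm, and from 4.97 to 6.72 and 3.60 to 6.52 for 8 macrophage and monocyte genes. The sum of 7 dendritic cell genes was higher in treated libraries (11.2 to 16.3 CPM) than in control (4.83 to 5.71 CPM), which came from Zbtb46 and Batf3; the more specific Clec9a and Siglech had 1 and 7 counts over all 8 libraries. For 5 NK cell genes it was 1.92 to 3.66 and 3.73 to 6.44 CPM, with Ncr1 at 0. Neutrophil and erythroid sums stayed under 1 CPM in every library, with Hbb-bs at 0, and CD8 T cell genes summed to 9.89 to 14.3 and 10.2 to 14.9 CPM. The part of these marker changes, and of other cells, in the results below was not tested.

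Mx1 and Mx2 are dynamin-like GTPases that trap viral ribonucleoproteins. Both lie on chromosome 16 in GRCm38, Mx1 at 97447035 to 97462907 on the minus strand and Mx2 at 97535308 to 97560900 on the plus strand, 72.4 kb apart. Most inbred laboratory mice, C57BL/6 among them, carry Mx genes damaged by mutation, and GENCODE lists Mx2 as a polymorphic pseudogene, so the RNA need not give an active protein in this strain. Mx1 was at 3.28, 2.07, 2.89 and 2.97 CPM in control replicates 1 to 4 and at 44.1, 43.2, 45.3 and 55.0 CPM in treated replicates 1 to 4. Treated replicate 4 was the highest and the other treated libraries lay within a few CPM of each other. The log2 fold change was 4.08 (SE 0.12, edgeR adjusted p = 1.19e-09), the third largest rise by fold among all tested genes.

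Mx2 was at 3.56, 3.28, 3.15 and 3.89 CPM in the control and at 25.2, 28.3, 29.8 and 34.7 CPM in the treated libraries. Its log2 fold change was 3.08 (SE 0.11, edgeR adjusted p = 4.46e-09), or 8.48-fold. Replicate 4 was highest in both groups. Mx1 was under Mx2 in every control library and above it in every treated library: the log2 ratio of their counts went from -0.32 ± 0.26 to 0.67 ± 0.10 (SD, n = 4), a difference of 1.00 (exact two-sided permutation p = 0.0286, the smallest that 4 against 4 allows, and 0.0357 adjusted over 5 ratios). The genes share some sequence: 4.37% of the 50-base stretches in Mx1 transcripts and 4.38% of those in Mx2 transcripts also occur in another annotated gene, in most cases the other Mx gene.

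Rsad2 and Cmpk2 are neighbours on chromosome 12, transcribed away from each other from starts 12.8 kb apart. Rsad2 (26442746 to 26456452, minus strand) encodes viperin, a radical SAM enzyme that converts CTP into a chain-terminating nucleotide, and Cmpk2 (26469204 to 26479837, plus strand) encodes a mitochondrial kinase that phosphorylates CMP and UMP. Their start regions are printed because these neighbours rose to different extents. Each run below covers 250 bases before and 30 bases from the RefSeq gene start (GRCm38.p6), 5′ to 3′ on the gene's strand, with matches to the ISRE core (GAAA, any 2 bases, GAAA) on either strand in capitals.
Rsad2, chr12:26456423-26456702, minus strand: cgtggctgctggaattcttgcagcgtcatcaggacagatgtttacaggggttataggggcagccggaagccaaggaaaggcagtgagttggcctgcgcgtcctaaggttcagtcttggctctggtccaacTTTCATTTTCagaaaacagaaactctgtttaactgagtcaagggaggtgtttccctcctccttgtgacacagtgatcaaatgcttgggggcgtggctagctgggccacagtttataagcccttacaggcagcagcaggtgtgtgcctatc
Cmpk2, chr12:26468965-26469244, plus strand: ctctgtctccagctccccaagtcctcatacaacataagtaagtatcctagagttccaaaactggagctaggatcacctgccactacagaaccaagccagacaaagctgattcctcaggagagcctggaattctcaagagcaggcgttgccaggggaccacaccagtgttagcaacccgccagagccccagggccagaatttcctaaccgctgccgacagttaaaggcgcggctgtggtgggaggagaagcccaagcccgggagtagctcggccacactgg
The core was searched on both strands, overlapping matches included, in windows of 300 bases that end 50 bases after the start, and 3.44% of 32851 such RefSeq windows of all genes held it. In the Rsad2 window it occurs once, at -120 to -111 from the start, where the printed capitals are its reverse complement. In the Cmpk2 window these letters do not occur.

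Rsad2 was at 1.12, 0.562, 0.595 and 0.699 CPM in the control and at 9.79, 8.12, 10.3 and 10.4 CPM in the treated libraries. Control replicate 1 was the highest control library, yet still far under every treated library. The control values rest on 20 to 36 reads per library. The log2 fold change was 3.72 (SE 0.17, edgeR adjusted p = 2.44e-08), a 13.2-fold rise.

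Cmpk2 was at 9.02, 4.79, 5.29 and 4.14 CPM in the control and at 28.8, 24.1, 25.6 and 25.0 CPM in the treated libraries. Replicate 1 was highest in both groups. The log2 fold change was 2.18 (SE 0.18, edgeR adjusted p = 2.62e-06), or 4.52-fold, and it was 2.45 without control replicate 1. The log2 ratio of Rsad2 to Cmpk2 counts went from -2.93 ± 0.26 to -1.42 ± 0.16 (SD, n = 4). Rsad2 thus rose more than Cmpk2, by 1.51 on the log2 scale (exact two-sided permutation p = 0.0286, 0.0357 adjusted over 5 ratios), in each of the 4 same-numbered pairs.

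The IFITM genes did not move together. They encode small membrane proteins that block fusion of virus and cell, IFITM3 mainly in endosomes and IFITM1 mainly at the cell surface. They form a cluster on chromosome 7, with Ifitm2 at 140954837 to 140955987 (minus strand), Ifitm1 at 140967221 to 140969825 (plus strand) and Ifitm3 at 141009586 to 141010770 (minus strand). Their start regions are shown in the same way, since Ifitm3 parted from its neighbours in the data.
Ifitm1, chr7:140967826-140968105, plus strand: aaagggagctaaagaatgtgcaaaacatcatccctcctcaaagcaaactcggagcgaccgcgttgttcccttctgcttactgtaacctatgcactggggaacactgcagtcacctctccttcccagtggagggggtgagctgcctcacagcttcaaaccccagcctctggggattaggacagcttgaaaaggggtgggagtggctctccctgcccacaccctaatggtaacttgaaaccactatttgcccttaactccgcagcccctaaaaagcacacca
Ifitm2, chr7:140955932-140956211, minus strand: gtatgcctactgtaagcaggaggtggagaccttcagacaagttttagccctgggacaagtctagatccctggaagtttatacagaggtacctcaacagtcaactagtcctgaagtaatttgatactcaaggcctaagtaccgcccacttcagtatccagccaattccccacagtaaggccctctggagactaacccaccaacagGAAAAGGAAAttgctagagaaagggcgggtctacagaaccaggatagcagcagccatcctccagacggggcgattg
Ifitm3, chr7:141010715-141010994, minus strand: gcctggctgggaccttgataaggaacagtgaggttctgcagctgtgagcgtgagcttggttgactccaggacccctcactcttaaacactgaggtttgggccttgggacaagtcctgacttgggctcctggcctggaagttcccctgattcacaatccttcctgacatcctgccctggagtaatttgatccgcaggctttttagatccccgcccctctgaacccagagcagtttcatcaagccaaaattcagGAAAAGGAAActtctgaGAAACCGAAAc
The Ifitm3 window holds the ISRE core at 3 to 12 and at 20 to 29 after the start, counting the first transcribed base as 1. The Ifitm2 window holds it once, at -46 to -37, with the same letters as the first Ifitm3 match. The Ifitm1 window does not contain these letters, but it is placed at a RefSeq start 855 bases inside the GENCODE gene, so other starts of Ifitm1 were not searched. A core of interferon gamma response elements (TTC, any 3 bases, GAA), held by 8.3% of all windows, occurs in the Ifitm3 window at 14 to 22, where its last bases are also the first of the second ISRE core, and not in those of Ifitm1, Ifitm2, Rsad2 or Cmpk2. A match is a string of letters and says nothing of whether a factor bound there.

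Ifitm1 was at 16.6, 12.2, 12.2 and 10.9 CPM in the control and at 10.5, 8.54, 9.39 and 9.23 CPM in the treated libraries. The groups come close, with the lowest control library just above the highest treated library. It fell by 0.46 on the log2 scale (SE 0.12, edgeR adjusted p = 0.0111), or by 0.32 without control replicate 1 (adjusted p = 0.00813).

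Ifitm2 was at 74.2, 63.5, 64.6 and 59.1 CPM in the control and at 48.7, 45.3, 47.5 and 40.4 CPM in the treated libraries. All treated libraries lay below all control libraries. It fell by 0.52 on the log2 scale (SE 0.07, edgeR adjusted p = 0.000209). Its count is uncertain in level: 48.5% of its 50-base stretches also occur in another annotated gene, above all Gm45717, which overlaps 268 of its 655 exon bases on the same strand and was listed with 0 counts in every library.

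Ifitm3 was at 59.7, 36.5, 34.6 and 32.1 CPM in the control and at 59.4, 46.7, 53.0 and 49.2 CPM in the treated libraries. Control replicate 1 stood as high as the highest treated library, while the other control libraries lay below every treated one. The log2 fold change was 0.36 (SE 0.16, 95% interval 0.00 to 0.71, edgeR adjusted p = 0.106). With the replicate number as a block it was 0.38 and past the threshold (edgeR adjusted p = 0.000546), as it was without control replicate 1 (0.60, edgeR adjusted p = 5.07e-05) and without a filter on low counts (0.36, edgeR adjusted p = 0.0091). Within same-numbered pairs the log2 difference was -0.01, 0.36, 0.62 and 0.61 for replicates 1 to 4.

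Ratios within a library, which need no scaling between libraries, separate the IFITM genes. The log2 ratio of Ifitm2 to Ifitm3 counts was above 0 in all control libraries and below 0 in all treated ones, going from 0.72 ± 0.28 to -0.19 ± 0.12 (SD, n = 4), a difference of -0.92. Since the Ifitm2 level is uncertain, the sign of this ratio does not show which RNA was more abundant. The log2 ratio of Ifitm1 to Ifitm3 counts went from -1.62 ± 0.15 to -2.47 ± 0.04, a difference of -0.84. Both gave an exact two-sided permutation p = 0.0286, or 0.0357 adjusted over 5 ratios, and both kept their direction in all 4 same-numbered pairs. The ratio of Ifitm1 to Ifitm2 overlapped between groups, with means of -2.34 ± 0.13 and -2.27 ± 0.13 and a difference of 0.07 (exact permutation p = 0.4, the same after adjustment).

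**Figure D2:**
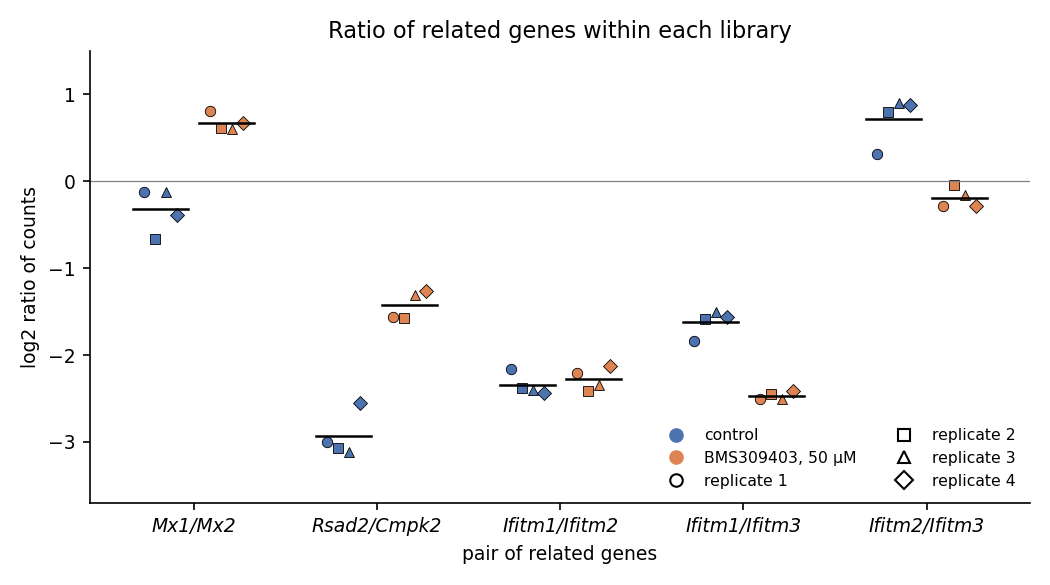
Log2 ratio of the counts of related genes within each library for the 5 pairs compared, with control in blue, BMS309403 in orange, replicate numbers as symbols and group means as bars. The groups are apart for 4 pairs and overlap for Ifitm1/Ifitm2.

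Eif2ak2 encodes PKR, a kinase that senses double-stranded RNA and halts translation by phosphorylating eIF2α. It lies on chromosome 17 at 78852564 to 78882573 (minus strand). Its level was 55.0, 49.0, 52.8 and 57.7 CPM in the control and 136, 135, 124 and 145 CPM in the treated libraries. Values were tight within each group, and the log2 fold change was 1.33 (SE 0.06, edgeR adjusted p = 1.90e-08), or 2.52-fold. Other genes overlap 221 of the 5113 exon bases of Eif2ak2; one of them, Gm26637 on the opposite strand, was also higher (2.65 to 6.12 CPM, log2 fold change 1.21, edgeR adjusted p = 6.67e-06). No source used here gives the strand setting of the counting, so reads within that overlap cannot be assigned to either gene. The RefSeq window of Eif2ak2 holds the ISRE core once, at 19 to 28 after the start, and the interferon gamma core at -178 to -170.

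Zbp1 encodes a sensor of left-handed nucleic acid that can start necroptosis, on chromosome 2 at 173206612 to 173218923 (minus strand). It was at 90.6, 72.5, 70.2 and 73.1 CPM in the control and at 187, 176, 177 and 191 CPM in the treated libraries. Control replicate 1 stood above the other control libraries, and the groups were well apart. The log2 fold change was 1.26 (SE 0.07, edgeR adjusted p = 1.28e-07), or 2.39-fold.

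Bst2 encodes tetherin, which ties budding virus particles to the cell surface and in mice also marks plasmacytoid dendritic cells. It lies on chromosome 8 at 71534255 to 71537456 (minus strand). It was at 60.3, 48.1, 57.0 and 58.5 CPM in the control and at 128, 137, 148 and 164 CPM in the treated libraries. Each treated library exceeded the highest control library by more than 2-fold. The log2 fold change was 1.37 (SE 0.08, edgeR adjusted p = 2.16e-07). Siglech, another gene of plasmacytoid dendritic cells, averaged 0.0119 CPM without and 0.0309 CPM with the drug. The RefSeq window of Bst2 holds 2 overlapping ISRE cores, at -130 to -121 and -124 to -115, and the interferon gamma core at -136 to -128. Mx1, Mx2 and Zbp1 have no entry in the table of start regions used here.

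**Figure D3:**
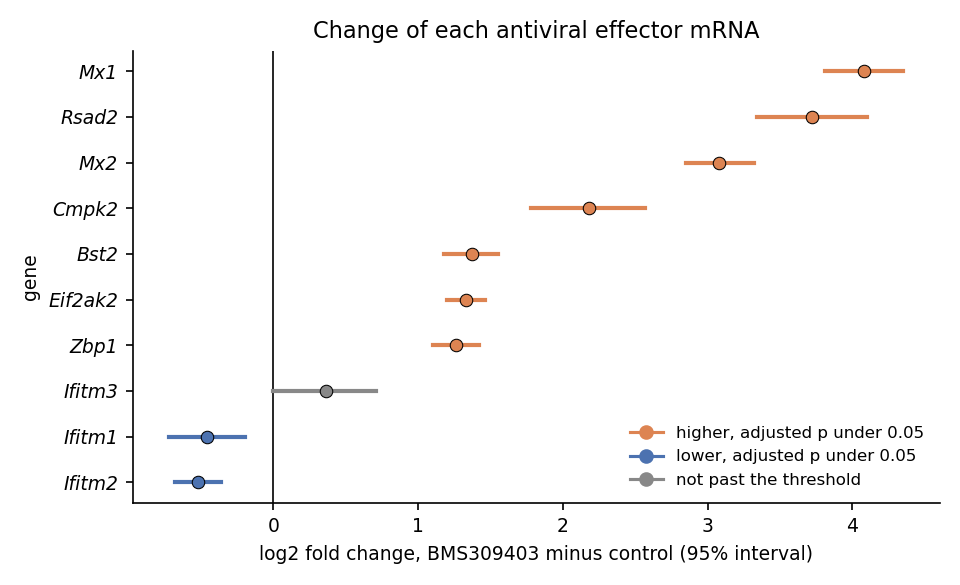
Log2 fold change of each effector (BMS309403 minus control) with its 95% interval from edgeR, coloured by call. The 7 higher genes run from 1.26 for Zbp1 to 4.08 for Mx1, Ifitm1 and Ifitm2 lie below 0, and the Ifitm3 interval starts at 0.00.

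The 4 effectors with the lowest control level per kb (Rsad2, Mx1, Mx2 and Cmpk2) were also those with the 4 largest log2 fold changes. The control level is the denominator of the fold change, so this link is partly built in. In CPM per kb of exon, which allows genes to be set beside each other, the control order was Ifitm2 (99.8 ± 9.69), Bst2 (62.0 ± 5.99), Ifitm3 (60.1 ± 18.8), Zbp1 (21.7 ± 2.67), Ifitm1 (11.9 ± 2.30), Eif2ak2 (10.5 ± 0.722), Cmpk2 (1.40 ± 0.526), Mx2 (0.961 ± 0.0908), Mx1 (0.740 ± 0.137) and Rsad2 (0.171 ± 0.0589; SD, n = 4). In that order the ranges over libraries overlapped between Bst2 and Ifitm3, between Ifitm1 and Eif2ak2 and between Cmpk2 and Mx2. In treated libraries Bst2 came first (160 ± 17.1), then Ifitm3 (76.8 ± 8.16), Ifitm2 (69.4 ± 5.60), Zbp1 (51.9 ± 2.07), Eif2ak2 (26.4 ± 1.66), Mx1 (12.4 ± 1.44), Ifitm1 (8.60 ± 0.736), Mx2 (8.16 ± 1.09), Cmpk2 (6.22 ± 0.494) and Rsad2 (2.23 ± 0.248). Here the ranges of Ifitm3 and Ifitm2 and those of Ifitm1 and Mx2 overlapped. The place of Ifitm2 is uncertain in both orders, since Gm45717, listed with 0 counts, overlaps 268 of its 655 exon bases. Mx1 moved up from the place before last to the sixth, while Rsad2 remained the lowest of the 10 in both groups.

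**Figure D4:**
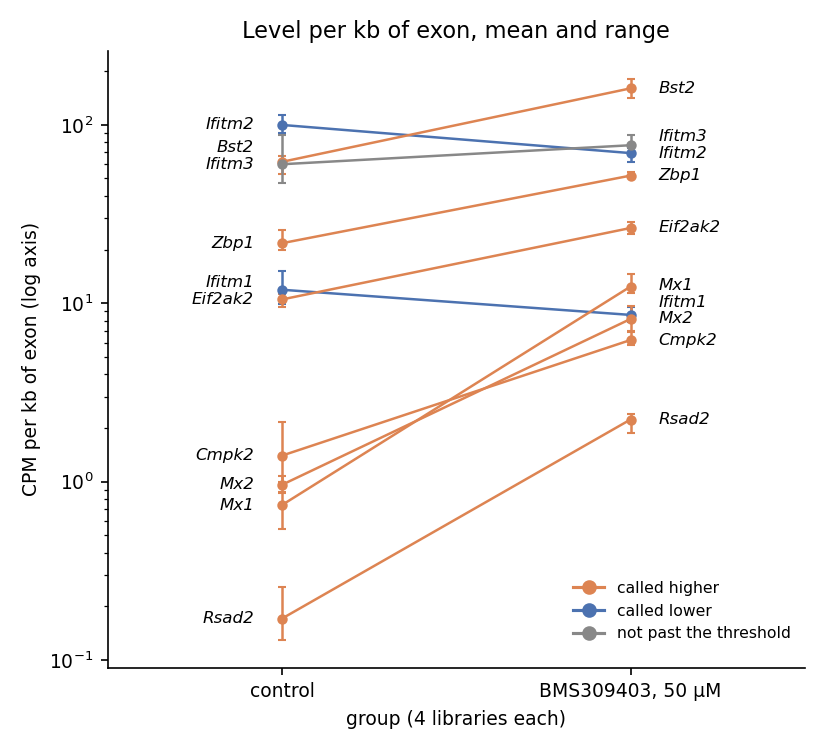
Mean CPM per kb of exon in the 4 control and the 4 BMS309403 libraries on a log axis, with bars from the lowest to the highest library and lines joining each gene. Bst2 takes the first place from Ifitm2, whose level is uncertain, and Mx1 overtakes Cmpk2, Mx2 and Ifitm1.

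Control replicate 1 was the highest control library for 8 of the 10 effectors. Its Ifng level also stood apart (8.09 CPM, against 3.03, 2.86 and 2.84 in control replicates 2 to 4), and so did that of treated replicate 1 (16.5 CPM, against 7.40, 8.04 and 8.03). Whether this bears on the effectors was not tested. Without control replicate 1, 8 effectors were called higher and 2 lower, the added one being Ifitm3.

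Genes with the most similar profile were sought for the 7 effectors with a log2 fold change of at least 1. The measure was the root-mean-square difference, over 8 libraries, between log2 CPM profiles taken relative to their control means, among 10853 genes. Symbols that mark predicted genes or pseudogenes were left out. By this measure a near gene is largely one with a similar log2 fold change, as with Ifit2 (1.31) beside Eif2ak2 (1.33). For Mx1 the nearest genes were Rsad2 (0.344), the cytokine gene Il9 (0.415) and Ifi44 (0.490). For Mx2 they were Oas1a, Oasl1 and Usp18 (0.148 to 0.191). For Rsad2 they were Ifit3b, Mx1 and Isg15 (0.298 to 0.356), and for Cmpk2 they were Rtp4, Ifi206 and Ifi208 (0.128 to 0.176). Ifit2 was among the nearest for Bst2, Eif2ak2 and Zbp1 (0.103, 0.077 and 0.078). The others were Phf11c and Eif2ak2 for Bst2, Helz2 and Ccn4 for Eif2ak2, and Parp14 and Sdc3 for Zbp1. Mean Il9 was 0.202 CPM without and 3.82 CPM with the drug.

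Interferon genes themselves were near or under detection, apart from Ifng. Of 20 ligand genes only Ifng passed the filter, and 8 had no count in any library. Mean Ifng was 4.20 ± 2.59 CPM without and 10.0 ± 4.37 CPM with the drug (SD, n = 4), a log2 fold change of 1.27 (edgeR adjusted p = 0.0148). The groups overlapped, and the call was lost without control replicate 2 (edgeR adjusted p = 0.0511) or 3 (0.0516). Each treated library lay above the control library of the same number. With the replicate number as a block, a pairing that the labels do not state, Ifng was called higher (edgeR adjusted p = 1.19e-08). The medium of both groups held an antibody against its protein. Summed over 4 libraries, Ifna4 had 1 count in control and 27 in treated libraries, Ifnb1 had 2 and 11, and Ifnl2, a type III interferon, had 8 and 37. In the fit without a filter on low counts Ifna4 and Ifnl2 were called higher along with Ifng (edgeR adjusted p = 0.000285, 0.00637 and 1.91e-05), and Ifnb1 was not (0.13). At nearly unchanged fold changes, that fit moved the edgeR adjusted p of Mx1 from 1.19e-09 to 5.93e-28 and of Ifitm3 from 0.106 to 0.0091. Its calls on ligands with so few reads are thus less secure than calls of the main fit. Interferon alpha genes are close copies of each other, as are Ifnl2 and Ifnl3, so how reads fell between them is uncertain.

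Upstream of the effectors, Stat2 and Irf9, which encode subunits of ISGF3, rose by 1.13 and 0.55 on the log2 scale, and the kinase gene Tyk2 rose by 0.31. The type I interferon receptor chains Ifnar1 (0.07, 95% interval -0.06 to 0.20) and Ifnar2 (-0.04, 95% interval -0.16 to 0.09) were not past the threshold. Jak1, named after its values were seen, fell by 0.16. The counts below for feedback genes and interferon-inducing factors stand against 18.7% of all tested genes called higher and 18.1% lower. Of 7 feedback genes 4 were higher and 2 lower (median 0.16); the second lower gene, Pias1 (-0.14, named after its values were seen), lost its call in 6 of the 8 fits that leave out 1 library (edgeR adjusted p of up to 0.0924). Isg15, a ubiquitin-like modifier, rose by 3.18 and Usp18, which removes it and dampens receptor signalling, by 2.98. Socs1 rose by 0.74, while Ptpn6, a phosphatase gene, fell by 0.35. Of 7 factors that induce interferon genes 5 were higher and 1 lower (median 0.17), with Irf7 higher by 2.43, Irf1 by 0.52 and Nfkb1 by 0.34. Irf3 (0.11, named after its values were seen) lost its call in 7 of the 8 fits that leave out 1 library (edgeR adjusted p of up to 0.122). The lower one, Irf8 (-0.23), lost its call without treated replicate 2, 3 or 4 (edgeR adjusted p = 0.0708, 0.0554 and 0.0717).

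The calls among relatives of the effectors by sequence stand against 18.7% of all tested genes called higher and 18.1% called lower. Of 8 other IFITM and CD225 family genes 3 were tested and 0 passed in edgeR's test, with DESeq2 or with limma-voom, nor did any have an unadjusted edgeR p under 0.05. Ifitm7, Tmem91 and Prrt2 had log2 fold changes of -0.31, 0.02 and -0.19 (edgeR adjusted p = 0.587, 0.973 and 0.501), all at about 1 CPM or less. Their SEs were 0.42, 0.22 and 0.21, so a modest change could hardly be called. Of 10 dynamin-type GTPases related to the MX proteins, 1 was higher (Atl3, 0.17) and 1 lower (Atl2, -0.25), and the median was 0.02. The higher count was 2 with the replicate block and without treated replicate 1.

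Around PKR, 7 of 19 genes were higher and 2 lower, with a median log2 fold change of 0.01. For this list and the ZBP1 list below, the background is 18.7% of all tested genes called higher and 18.1% lower. Ddit3, a stress transcription factor, rose by 1.33, Adar, an RNA-editing enzyme that restrains PKR, by 0.69, Atf4, the main factor translated when eIF2α is phosphorylated, by 0.51, and Ppp1r15a, which reverses that phosphorylation, by 0.47. Of the other eIF2α kinases, Eif2ak1 (0.01) and Eif2ak4 (0.00) were not past the threshold and Eif2ak3, the kinase PERK, fell by 0.33; it was named after its values were seen, as was Dnajc3 (-0.12), the other lower gene. Dnajc3 lost its call in 7 of the 8 fits that leave out 1 library (edgeR adjusted p of up to 0.118) and Tarbp2 (0.14), one of the higher genes, in 6 (up to 0.0935). With the replicate block 4 genes were lower. Around ZBP1, 3 of 8 genes were higher and 3 lower (median 0.04); Fadd (-0.17, named after its values were seen), one of the lower genes, lost its call in 7 of the 8 fits that leave out 1 library (edgeR adjusted p of up to 0.093). Mlkl, which executes necroptosis, rose by 0.90, and Cflar, an inhibitor of caspase-8, by 0.31. Ripk3, the kinase that ZBP1 engages, fell by 0.45 and Casp6 by 0.39.

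The counts for the enzymes and partners of CMPK2, viperin and tetherin stand against the 18.7% of all tested genes that were called higher and the 18.1% called lower. Of 15 genes of nucleotide kinases and mitochondrial nucleotide supply 2 were higher and 4 lower (median -0.12), or 8 lower with the replicate block. Ak4, a mitochondrial adenylate kinase, fell by 0.58, and Ak1 fell by 1.27 but lay at only 1.00 CPM in control. Slc25a33 (0.48) and Nme4 (-0.27) each lost their call in 5 of the 8 fits that leave out 1 library, with edgeR adjusted p of up to 0.0906 and 0.133, and without treated replicate 2 the lower genes were 2. Of 9 genes for viperin maturation and partners 2 were higher and 3 lower (median 0.02). Traf6 rose by 0.44, while Fdps, a farnesyl diphosphate synthase that viperin binds, fell by 0.68 and Hadhb by 0.27. Ciao1 (-0.18) lost its call without control replicate 3, treated replicate 2 or treated replicate 4 (edgeR adjusted p of up to 0.0576). Of 9 genes of clathrin adaptors and the ESCRT machinery, Hgs was higher by 0.23 and Clta lower by 0.25.

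**Figure D5:**
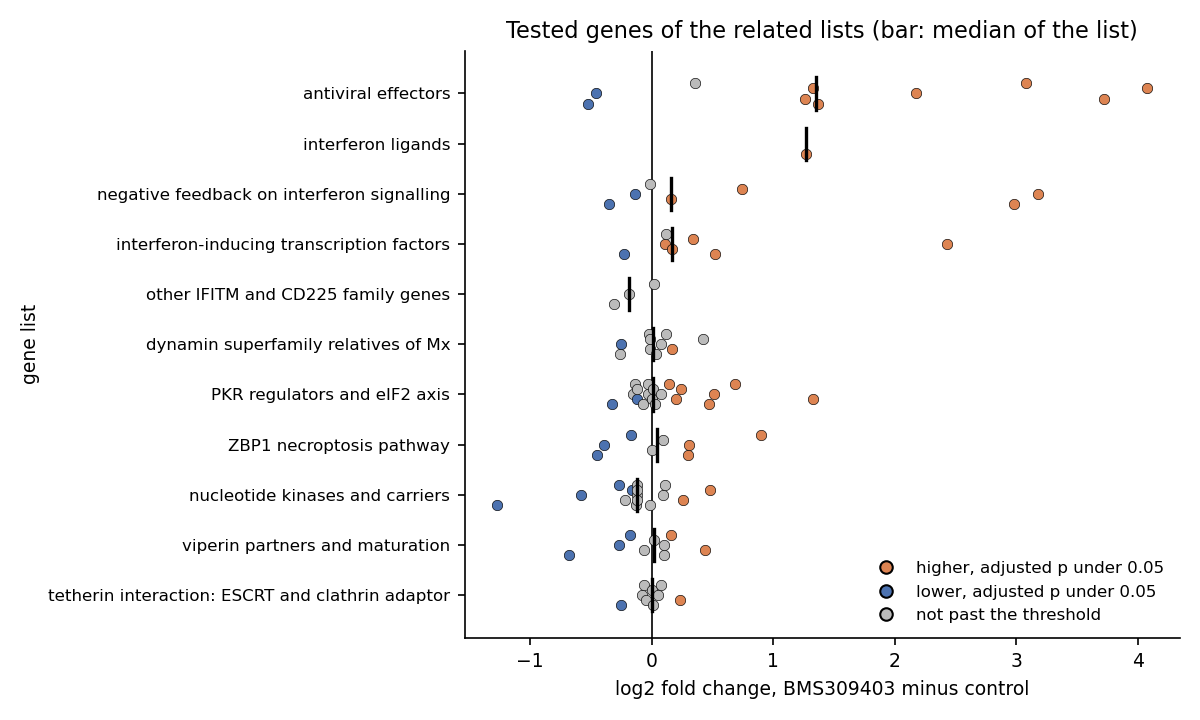
Log2 fold change (BMS309403 minus control) of each tested gene of the 10 effectors and of 10 related lists, coloured by call, with the list's median as a bar. The effectors have the highest median among the lists with more than 1 tested gene, and high single genes in other lists are Isg15, Usp18 and Irf7.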

How the data were processed

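RNA was sequenced from 4 control and 4 BMS309403-treated libraries, grouped and numbered by their titles. The authors deposited whole-number read counts per Ensembl gene. STAR, featureCounts, DESeq2 and deepTools, with build GRCm38, are named in the submitters' processing notes; strand setting and handling of shared reads are not given in the sources used here. GENCODE M21 gave symbols for 53360 of 53465 IDs.

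Genes kept by filterByExpr were scaled by TMM and tested in edgeR 4.0.16 (R 4.3.3; glmQLFit and glmQLFTest) with treatment alone in the model. P-values were adjusted by Benjamini-Hochberg over 14443 genes at a threshold of 0.05. SEs come from the F statistic and 95% intervals from 11.8 degrees of freedom. Replicates differed by more than sampling noise (chi-square per degree of freedom 3.08 to 24.2). P-values measure the spread between these libraries, which may be technical. The script was tested on simulated data. CPM uses TMM-adjusted library sizes; CPM per kb divides by the union of exons. Ratios used counts plus 0.5 and an exact permutation test over 70 arrangements.

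The effectors, lists and naming rule (all effectors; up to 4 called genes of a longer list by size; the 3 nearest profiles among genes averaging at least 1 CPM) were chosen with earlier results of these data known. Same-numbered libraries deviated together (correlations 0.384, 0.145, 0.106 and 0.264), and were treated as pairs in the replicate block, though the labels state no pairing and treated replicate 2 correlated more with control replicate 4 (0.208) than with its own number. Alternatives were other normalizations, filters, DESeq2 1.42.0, limma-voom (limma 3.58.1), the replicate block and leaving out each library. Promoter windows matched 7 of 10 effectors. Protein sequences were not used here. The counts of the list of receptor and ISGF3 genes are not reported here.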

Additional observations from a re-analysis of the deposited data

Results flagged for a closer look

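Zbp1 in control replicate 1, at 90.6 CPM, stood far from the other 3 control libraries: its gap to the nearest of them was 0.841 of the group's range on the log2 scale, above the critical value of 0.829 for 4 samples. It was the only such case in 30 groups of 4 values examined (10 effectors and 5 ratios in each arm), and chance alone gives about 1 in 20. Without that library the log2 fold change of Zbp1 was 1.35, against 1.26 with it.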

How the results depend on the processing

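Over 15 alternatives (2 other scalings, 2 other tests, 2 other filters, the replicate block and leaving out each of the 8 libraries) the 10 effectors kept the direction of their change in all 150 fits and their side of the threshold in 147. The other 3 were Ifitm3, which passed with the replicate block, without control replicate 1 and without a filter on low counts; its log2 fold change ranged from 0.26 to 0.60. That of Ifitm1 ranged from -0.54 to -0.32, with an adjusted p of at most 0.0387. Over all genes the replicate block gave 3845 called higher and 3728 lower, against 2694 and 2617 without it. Scaling moved the median of all genes by little, from -0.00 with DESeq2 to 0.03 without scaling factors. With the replicate block the ratios changed by 1.00 (Mx1/Mx2), 1.51 (Rsad2/Cmpk2), -0.84 (Ifitm1/Ifitm3) and -0.92 (Ifitm2/Ifitm3), and the exact sign-flip p of 0.125 is the smallest that 4 pairs allow. Leaving out 1 library they ranged from 0.88 to 1.06, 1.45 to 1.64, -0.92 to -0.80 and -1.05 to -0.86; 3 against 4 cannot go below an exact p of 0.0571. Of 330 counts of called genes in the related lists, 33 differed from the main count by more than 1.5 times. The genes of these lists named above as losing their call without 1 library all passed with the replicate block. Their edgeR adjusted p was at most 0.0106 there (Irf3), in a fit that also called more of all genes. Depth limits Rsad2 in control libraries and the interferon ligands.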
